A study of Mus musculus with 28 samples.

Results

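The genes described here encode the subunits of the receptors for glutamate, GABA, glycine and acetylcholine in the mouse retina. They were chosen by symbol: every gene of the normalized count table whose symbol starts with Gria, Grik, Grin, Grid, Grm, Gabr, Glra, Glrb or Chrn followed only by letters and digits, without Grina, Grm6, Grik1, Chrna6 and Chrnb3, and with a mean of at least 10 normalized counts over the libraries used. The symbol rule found 62 genes, of which 53 reached that mean, among 15773 genes of the table that did. The 9 below it were Chrna9, Chrna10, Chrnd, Chrne, Chrng, Gabra5, Gabra6, Gabrp and Grm3, with means from 0.040 to 9.95, and the nearest to the limit were Gabra5 at 9.95 and, just inside, Gabrq at 11.5.

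Every mouse had a crush of the right optic nerve (ONC), and its left nerve served as the uncrushed control (CTRL). Mice of both sexes received daily intraperitoneal injections of vehicle or of RGFP966 at 10 mg/kg, which inhibits HDAC3, a histone deacetylase, and both retinas were taken 7 days after the crush, so all 4 groups had 7 days of injections. Polyadenylated RNA of whole retina was sequenced, and the labels give no strain, age or genotype. The groups used here were vehicle CTRL and vehicle ONC, with 6 libraries each from the same 2 females and 4 males, and RGFP966 CTRL and RGFP966 ONC, with 7 libraries each from the same 3 females and 4 males. The crushed eye was always the right one, so side and crush cannot be told apart. The labels of RGFP966 CTRL female A disagree, with crush named in the description and no crush in the title and condition, and the title was followed. In such bulk samples fewer cells of a type and less RNA per cell cannot be told apart.

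Glutamate is the transmitter of photoreceptors, bipolar cells and retinal ganglion cells, whose axons form the optic nerve. AMPA and kainate receptors carry fast excitation, NMDA receptors carry slower excitation that depends on voltage, and metabotropic glutamate receptors act through G proteins. Amacrine cells release GABA or glycine onto chloride channels, and starburst amacrine cells release acetylcholine onto nicotinic receptors, which are cation channels.

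The libraries held 17671700 to 21852200 normalized counts, or by estimate 15996200 to 24725700 reads, and 1 normalized count stood for about 1 read. Ganglion cell markers fell with crush as a group: 10 of 14 passed the test downward in vehicle mice and 11 of 14 in RGFP966 mice, with median log2 changes of -1.45 and -1.74, among them Pou4f2 and Nefl. Their summed level was 9045 to 16793 in vehicle CTRL, 3550 to 6148 in vehicle ONC, 10105 to 15119 in RGFP966 CTRL and 3531 to 6404 in RGFP966 ONC, with no marker at 0 in any group. Of 10 microglia markers, 9 rose in each, from sums of 1283 to 2420 to sums of 4453 to 8401 in vehicle mice and from 1647 to 2074 to 3991 to 7768 in RGFP966 mice, again with none at 0. Of 14 bipolar markers and 6 horizontal cell markers, none passed in either comparison (limma; 2 and 1 at an unadjusted p under 0.05 in vehicle mice, 0 and 0 in RGFP966 mice). Of all 15773 genes tested, 5.34% passed in vehicle mice and 4.67% in RGFP966 mice. At an unadjusted p under 0.05 by limma stood 2556 and 2381 of them. Among 14 amacrine markers only Calb2, a calcium-binding protein that ganglion cells also make, passed, downward in both, with median log2 changes of the list of 0.40 and 0.13. Of the Müller glia and astrocyte markers 7 of 12 rose and 1 fell in vehicle mice, 5 rose and 1 fell in RGFP966 mice, and 3 and 2 of 12 photoreceptor markers fell.

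2 libraries stood apart in the receptor genes. In vehicle CTRL male D the 53 genes summed to 12382 normalized counts, and 32 of them lay more than 0.5 log2 units below their medians over all libraries. In RGFP966 ONC male C they summed to 27734, and 30 lay more than 0.5 log2 units above. The same libraries had the lowest and the highest summed amacrine markers, 6821 and 20361 against 9343 to 15983 in the other 24, and vehicle CTRL male D had the highest photoreceptor sum, 2289080 against 1029100 to 1676290. The part of cell makeup in these levels was not tested. For some genes and class ranges of the glutamate, GABA-A and glycine receptors, crush changes without both libraries stand beside those with them. The other changes of these classes are given with all libraries and can shift without the 2.

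**Figure D1:**
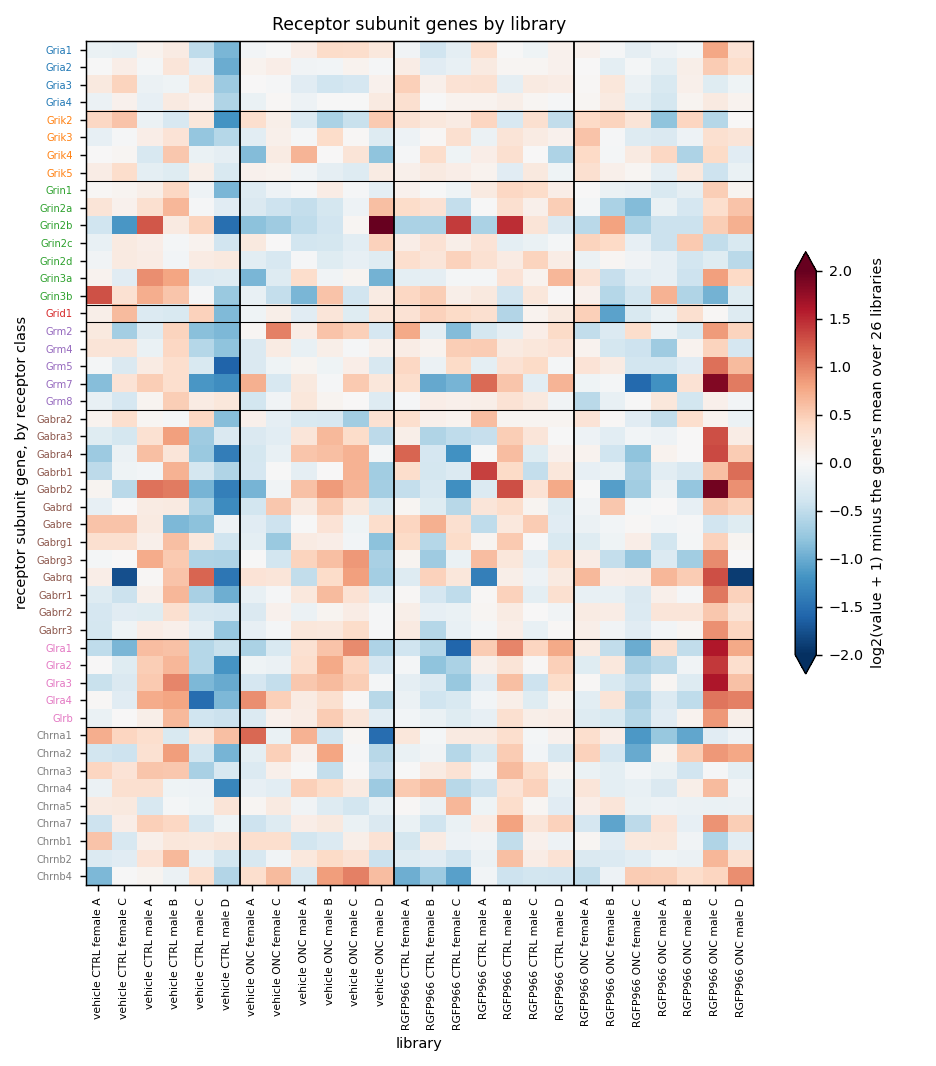
Each row is 1 of 48 receptor subunit genes, each column 1 of the 26 libraries, and the colour is log2(value + 1) minus the gene's mean over all libraries, with the colour scale ending at -2 and 2. Vehicle CTRL male D is blue in most rows and RGFP966 ONC male C red in most rows, and no group of columns differs from the others in most rows.

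Among the ionotropic glutamate receptors the most abundant gene by length was Grik5, a kainate receptor subunit that raises agonist affinity but needs a partner subunit to form a channel, with a mean level of 685 normalized counts per kb of transcript. Its normalized counts were 2070, 2502 and 3263 (lowest, median and highest) in vehicle CTRL, 2145, 2567 and 2851 in vehicle ONC, 2172, 2743 and 2921 in RGFP966 CTRL and 1914, 2612 and 3185 in RGFP966 ONC. These 4 ranges overlapped almost throughout. Grin1, the subunit that every NMDA receptor contains, followed at 247 per kb. It had 550.1, 1068 and 1392 normalized counts in vehicle CTRL, 868, 991 and 1150 in vehicle ONC, 984, 1139 and 1383 in RGFP966 CTRL and 838, 944 and 1469 in RGFP966 ONC, with overlap between all groups. Its exons overlap those of the antisense gene Grin1os by 1307 bases. Gria2, the AMPA receptor subunit that limits calcium entry, had 207 per kb. Its normalized counts were 1065, 2087 and 2516 in vehicle CTRL, 2029, 2158 and 2329 in vehicle ONC, 1805, 2189 and 2397 in RGFP966 CTRL and 1843, 2127 and 3030 in RGFP966 ONC, again overlapping. Gria4 at 187, Grin2d at 131, Gria3 at 120 and Gria1 at 85.0 per kb came next. Grin2a and Grin2b, the NMDA receptor subunits best known from the forebrain, had 5.72 and 8.89 per kb. These levels divide by the longest annotated coding transcript, and the order rests on that choice. Its length was 4276 bases for Grin1, 10371 for Gria2, 14634 for Grin2a and 24060 for Grin2b. By mean normalized count Gria2, at 2151, lay above Grin1, at 1057. 

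The delta receptors, which organize synapses more than they conduct current, were lower, with Grid1 at 35.2 per kb. Grid1 had 105, 185 and 299.8 normalized counts in vehicle CTRL, 163, 197 and 232 in vehicle ONC, 129, 238 and 266 in RGFP966 CTRL and 91.9, 177 and 269.6 in RGFP966 ONC. Among metabotropic receptors Grm8, which inhibits transmitter release, led with 100.1 per kb. Its normalized counts were 303, 412 and 536 in vehicle CTRL, 296, 374 and 447 in vehicle ONC, 363, 412 and 464 in RGFP966 CTRL and 263, 366 and 447 in RGFP966 ONC. The groups overlapped for both genes.

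Among the inhibitory receptors the rho subunits Gabrr2 and Gabrr1 led by length. They form GABA receptors without other subunit types and are known from bipolar cell terminals. Gabrr2 had 421 and Gabrr1 275 per kb, while Gabrr3 had 75.7 per kb and Gabrd, a subunit of receptors outside synapses, 92.5 per kb. The longest coding transcript was 1933 bases for Gabrr2 and 2286 for Gabrr1. By mean normalized count other GABA-A genes lay above Gabrr2, at 813, and Gabrr1, at 629. Glrb, whose product anchors glycine receptors at the synapse, had 177 per kb. Glra2, the ligand-binding glycine subunit with the highest level by length, had 36.0 per kb. By mean normalized count Glra3, at 180, lay above Glra2, at 113. Glrb had 385, 499 and 819 normalized counts in vehicle CTRL, 430, 565 and 739 in vehicle ONC, 441, 500.4 and 646 in RGFP966 CTRL and 350.3, 444 and 955 in RGFP966 ONC. Glra2 had 46.1, 97.0 and 167 in vehicle CTRL, 83.6, 116 and 179 in vehicle ONC, 59.7, 107 and 147 in RGFP966 CTRL and 66.8, 100.3 and 282 in RGFP966 ONC. For both the highest value was that of RGFP966 ONC male C, and the groups overlapped. The leading nicotinic gene was Chrnb2 at 107 per kb, followed by Chrnb1 at 84.4, Chrna5 at 48.7 and Chrna4 at 45.6 per kb, with Chrnb4 at 23.8 per kb. Chrna1 and Chrnb1 are known as subunits of the muscle receptor. Of 5 skeletal muscle markers that reached the mean of 10 none passed in either crush comparison by limma. None had an unadjusted p under 0.05 by limma either. Single libraries differed: the sum of all 11 listed muscle markers was 1024 in RGFP966 ONC female A and 496 in RGFP966 ONC female B. In the other libraries it was 164 to 398.

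**Figure D2:**
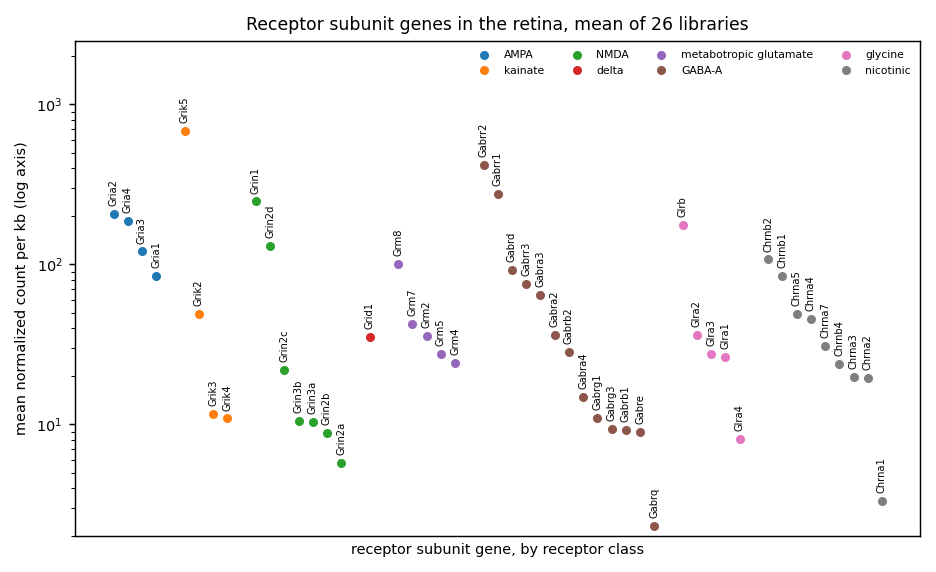
Each point is the mean normalized count of 1 of 48 genes over 26 libraries per kb of its longest coding transcript, on a log axis, by receptor class. Grik5 at 685 and Gabrr2 at 421 per kb stand highest and Gabrq and Chrna1 lowest.

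Within groups the receptor genes had a higher median spread than all genes. Their within-group SD on the log2 scale had a median of 0.42 over the 53 genes against 0.25 over all genes tested. Grin2d varied least of the 53, with an SD of 0.142, and Grin2b most, with 0.999. For Grin2b the library vehicle ONC male D held 1076 normalized counts, against 93.2 to 170 in the other 5 of its group.

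Few of these genes passed the test between crushed and uncrushed eyes. In vehicle mice 1 of 53 passed the threshold, an adjusted p under 0.05 from limma with Benjamini-Hochberg adjustment over all 15773 genes, downward, beside 5.34% of all genes tested, 3.69% upward and 1.65% downward. In RGFP966 mice 2 of 53 passed, 1 in each direction, beside 4.67% of all genes, 3.34% upward and 1.33% downward. Crushed and uncrushed eyes did not overlap for 0 of 53 genes in vehicle mice and for 1 of 53 in RGFP966 mice, beside 3.33% and 2.09% of all genes. The 53 log2 changes had a median of 0.12 in vehicle mice and -0.04 in RGFP966 mice, beside -0.01 and -0.01 over all genes tested. Of the 53, 36 were above and 17 below 0 in vehicle mice, and 24 above and 29 below in RGFP966 mice. The precision allows a narrow statement for some of them. The 95% interval of the change lay within 1.5-fold in either direction for 21 genes in vehicle mice and 26 in RGFP966 mice. Over all 15773 genes it did so for 10116 and 10747, a larger share than among the 53. For the other receptor genes larger changes are not excluded by these libraries. Without the 2 libraries that stood apart, 0 of 53 passed in vehicle mice and the median was -0.02. In RGFP966 mice 3 of 53 then passed with a median of -0.09, the third being Grm4, lower in the crushed eye. Of all 15773 genes, 765 passed in vehicle mice and 770 in RGFP966 mice without these libraries. The sign of the log2 change turned for 13 of the 53 genes in vehicle mice and for 10 in RGFP966 mice.

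**Figure D3:**
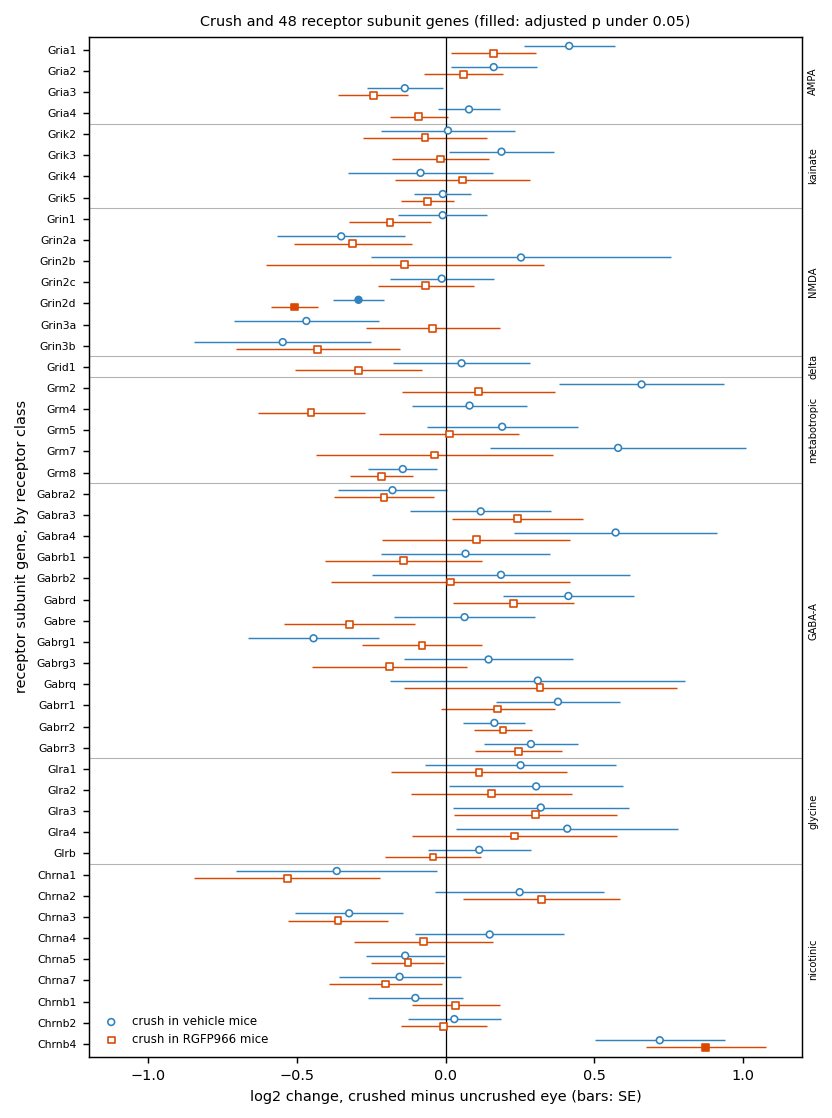
Log2 changes of 48 receptor genes between crushed and uncrushed eyes, with SE as bars, in vehicle mice (circles) and RGFP966 mice (squares), filled where the adjusted p was under 0.05. Grin2d is filled in both comparisons and Chrnb4 in RGFP966 mice.

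Grin2d, which encodes the GluN2D subunit that gives NMDA receptors slow closing and weak block by magnesium, fell after crush in both treatments. Its normalized counts were 669, 778 and 801 (lowest, median and highest) in vehicle CTRL and 562, 598 and 686 in vehicle ONC. In RGFP966 mice they were 777, 864 and 960.0 in CTRL and 480.0, 624.9 and 718 in ONC. The crushed eye was lower in 6 of 6 vehicle mice and 7 of 7 RGFP966 mice. The groups did not overlap in RGFP966 mice, while in vehicle mice the highest crushed eye lay above the 2 lowest uncrushed ones. The log2 change was -0.29 ± 0.085 (SE) in vehicle mice, with a limma adjusted p of 0.039, and -0.51 ± 0.079 in RGFP966 mice, with a limma adjusted p of 6.43e-05. The size of the drop was not shown to differ between treatments: the interaction had an unadjusted p of 0.074 and a limma adjusted p of 0.9996. The ganglion cell marker sums fell in the same eyes, and their part in the Grin2d result was not tested.

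The vehicle result for Grin2d was close to its threshold. Leaving out any 1 of 9 libraries ended the call, with adjusted p from 0.0557 to 0.118: vehicle ONC female A, female C, male B, male C and male D, and vehicle CTRL female C, male A, male C and male D. Rescaling all libraries to the same total gave a log2 change of -0.18 with an adjusted p of 0.23, on a scale where the median change of all genes was 0.1035. In RGFP966 mice the call held under all 33 alternatives, with limma adjusted p from 4.2e-05 to 0.000368. Those that left out a vehicle library could change only the spread and the adjustment, not the log2 change in RGFP966 mice. By GENCODE vM21, on GRCm38 (mm10), Grin2d (ENSMUSG00000002771.12) spans chr7:45831883-45878378 on the minus strand, and 421 bases of its exons overlap the antisense gene Gm45441, which was not analysed here. Whether the libraries kept strand is not given in the sources used here, so reads of the overlap cannot be assigned to one gene.

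None of the other 6 NMDA receptor genes passed in either comparison. Grin1, Grin2a, Grin2c, Grin3a and Grin3b were below 0 in both comparisons, with log2 changes between -0.55 and -0.01 in vehicle mice and between -0.43 and -0.04 in RGFP966 mice. Grin2b was at 0.25 and -0.14, and its vehicle value turned to -0.25 without vehicle ONC male D and to -0.05 without the 2 libraries that stood apart. Without those 2 libraries Grin1 went from -0.01 to -0.19 in vehicle mice and from -0.19 to -0.27 in RGFP966 mice, and Grin2c was at 0.0023 in RGFP966 mice. Without vehicle ONC male D, Grin1 was at 0.02 in vehicle mice. The lowest adjusted p among these 6 was 0.36 in vehicle mice and 0.52 in RGFP966 mice. Summed over the 7 NMDA genes, the median normalized count was 2254 in vehicle CTRL, 2076 in vehicle ONC, 2460 in RGFP966 CTRL and 2148 in RGFP966 ONC, and the ranges of crushed and uncrushed eyes overlapped.

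Chrnb4, a nicotinic subunit known from autonomic ganglia, where it pairs with the product of Chrna3, was the member with the largest change. Its normalized counts were 43.2, 78.1 and 103 (lowest, median and highest) in vehicle CTRL, 65.0, 126 and 164 in vehicle ONC, 37.8, 60.8 and 78.6 in RGFP966 CTRL and 57.5, 110.1 and 156 in RGFP966 ONC. The crushed eye was higher in 5 of 6 vehicle mice, the exception being male A, and in 7 of 7 RGFP966 mice, and the groups overlapped in both. In RGFP966 mice Chrnb4 rose, with a log2 change of 0.88 ± 0.20 (SE) and a limma adjusted p of 0.0072. The call held under all 33 alternatives, with limma adjusted p from 0.00146 to 0.0244, though those without a vehicle library could not change this log2 change. In vehicle mice the log2 change was 0.72 ± 0.22 with a limma adjusted p of 0.051. That value crossed the threshold in 7 of 33 alternatives. These were without vehicle ONC male A, at 0.00322, without vehicle CTRL female C, at 0.0291, without vehicle CTRL male C, at 0.0369, and without RGFP966 ONC female A or female C, at 0.0428 and 0.0495. The other alternatives past it were a pseudocount of 10, at 0.0464, and rescaling to the same total, at 0.0212. Without vehicle CTRL male D the log2 change in vehicle mice was 0.61 with a limma adjusted p of 0.145. Without the 2 libraries that stood apart it was 0.61 with a limma adjusted p of 0.15. No exon of another annotated gene overlapped Chrnb4. The ganglion cell and microglia marker sums differed between the same eyes, and their part in the Chrnb4 result was not tested.

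**Figure D4:**
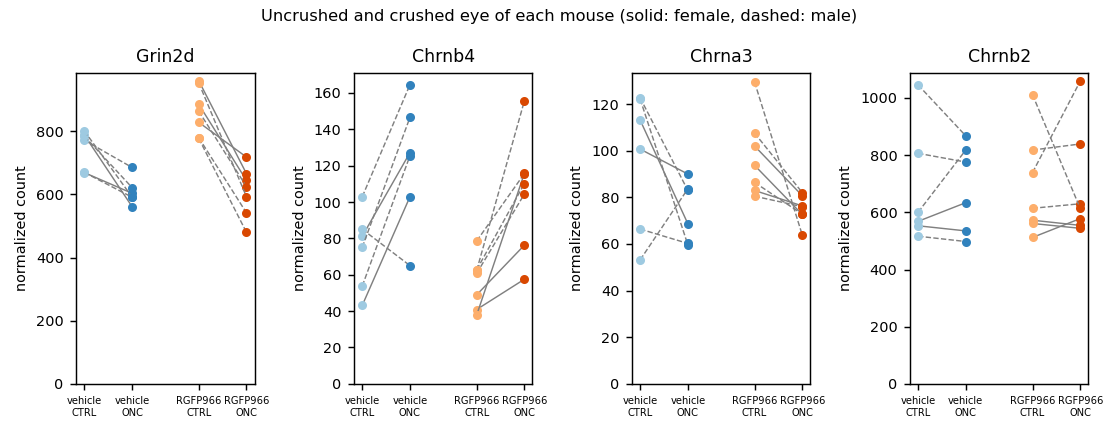
Normalized counts of Grin2d, Chrnb4, Chrna3 and Chrnb2, with a line joining the uncrushed and the crushed eye of each mouse, solid for females and dashed for males. All 13 Grin2d lines fall, 12 of 13 Chrnb4 lines rise, and Chrnb2 lines go both ways.

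Chrnb4 lies in a cluster with its usual partners. On chromosome 9 of GRCm38 (mm10), Chrna5 spans chr9:54980880-55007779 on the plus strand, Chrna3 chr9:55010111-55026562 on the minus strand and Chrnb4 chr9:55028154-55048779 on the minus strand, with 1591 bases between Chrna3 and Chrnb4. The neighbours did not pass the test. Chrna3, the ligand-binding partner, had 53.2, 107 and 123 normalized counts in vehicle CTRL, 59.6, 75.8 and 89.98 in vehicle ONC, 80.5, 93.7 and 129 in RGFP966 CTRL and 63.8, 76.0 and 82.0 in RGFP966 ONC. The crushed eye held less Chrna3 in 5 of 6 vehicle and 7 of 7 RGFP966 mice, with log2 changes of -0.32 ± 0.18 and -0.36 ± 0.17 and limma adjusted p of 0.40 and 0.30. Chrna5, an accessory subunit, had log2 changes of -0.14 and -0.13 with limma adjusted p of 0.70 and 0.72.

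The windows from 250 bases before to 50 after the RefSeq start (GRCm38.p6) of Chrnb4 and Chrna3 are shown because these genes are adjacent and 1 of them passed the test. They are written 5′ to 3′ along the minus strand, chr9:55048495-55048794 for Chrnb4 and chr9:55026513-55026812 for Chrna3. The GENCODE start of Chrnb4, at 55048779, lies near the upstream end of its window, so most of that window is within the annotated gene. For Chrna3 the GENCODE and RefSeq starts agree, so the 2 windows are not alike in position. Capitals mark matches on either strand to the GC box GGGCGG, the AP-1 site TGANTCA, the cAMP response element TGACGTCA or the E-box CANNTG, where N is any base.
Chrnb4: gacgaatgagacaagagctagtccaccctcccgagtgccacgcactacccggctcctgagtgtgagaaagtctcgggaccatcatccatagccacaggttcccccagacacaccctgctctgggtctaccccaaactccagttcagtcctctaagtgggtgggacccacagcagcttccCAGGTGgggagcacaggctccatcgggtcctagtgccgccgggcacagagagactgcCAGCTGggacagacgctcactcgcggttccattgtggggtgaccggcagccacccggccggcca
Chrna3: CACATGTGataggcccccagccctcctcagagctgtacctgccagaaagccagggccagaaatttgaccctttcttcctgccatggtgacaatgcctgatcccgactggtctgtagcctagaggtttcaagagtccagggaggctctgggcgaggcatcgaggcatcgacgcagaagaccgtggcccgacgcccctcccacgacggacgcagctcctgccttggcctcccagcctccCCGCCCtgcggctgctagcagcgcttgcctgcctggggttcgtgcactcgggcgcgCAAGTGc
The Chrnb4 window held 2 E-boxes and no GC box, and the Chrna3 window held 1 GC box and 3 E-boxes, of which 2 overlap at its first bases. Neither held an AP-1 site or a cAMP response element. Of all 32851 RefSeq windows of this length, 35.7% held a GC box, 72.3% an E-box, 7.81% an AP-1 site and 1.79% a cAMP response element. Windows were matched for 37 of the 53 genes, of which 24 held a GC box, 25 an E-box, 3 an AP-1 site and 0 a cAMP response element. These are letter matches only.

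The ratio of the nicotinic β subunits was lower in the crushed eyes of RGFP966 mice. Chrnb2, which forms the main brain receptors with Chrna4, had 517, 584 and 1046 normalized counts in vehicle CTRL, 498, 705 and 868 in vehicle ONC, 512, 614 and 1012 in RGFP966 CTRL and 544, 614 and 1059 in RGFP966 ONC. Its exons overlap those of Adar by 1365 bases, and the groups overlapped, with log2 changes of 0.03 ± 0.16 and -0.01 ± 0.14 in vehicle and RGFP966 mice. The log2 ratio of Chrnb2 to Chrnb4 within a library, which does not depend on library scaling, was 3.60 ± 0.33 (SD, n = 7) in RGFP966 CTRL and 2.72 ± 0.39 (SD, n = 7) in RGFP966 ONC. The difference of -0.88 had a two-sided exact permutation p of 0.0023, adjusted to 0.023 over 5 ratios in 2 comparisons, and the ratio was lower in the crushed eye of 7 of 7 mice. With the eyes paired by mouse, an exact sign-flip test over 7 mice cannot go below 0.0156, and the adjusted p was 0.156. Leaving out RGFP966 CTRL male B gave 0.0524. In vehicle mice the ratio was 3.204 ± 0.48 (SD, n = 6) in CTRL and 2.51 ± 0.54 (SD, n = 6) in ONC, a difference of -0.69 with an exact permutation p of 0.045, adjusted to 0.23.

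The other 3 ratios described here did not pass in either comparison. They were Gria2 to the sum of Gria1, Gria3 and Gria4, which reflects calcium permeability of AMPA receptors, Grin2a to Grin2b, and Glra1 to Glra2, pairs whose balance shifts during development in many neurons. Their differences ran from -0.60 for Grin2a to Grin2b in vehicle mice to 0.14 for the AMPA ratio in RGFP966 mice, with exact permutation adjusted p from 0.38 to 0.90. The Grin2a to Grin2b difference in vehicle mice was -0.23 without vehicle ONC male D, with an exact permutation adjusted p of 0.84. The AMPA ratio in RGFP966 mice reached 0.21 with an adjusted p of 0.0495 without RGFP966 ONC female B.

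**Figure D5:**
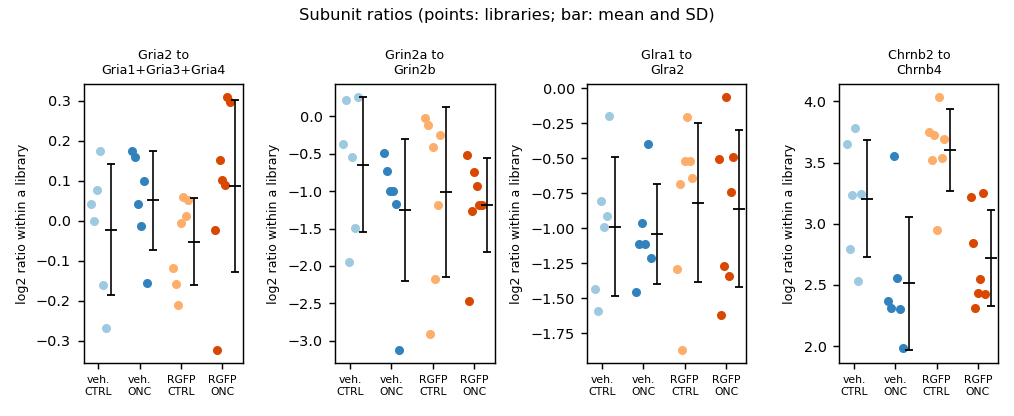
Log2 ratios of subunit genes within each library (points) with the mean and SD of each group (bars); veh. is vehicle and RGFP is RGFP966. For Chrnb2 to Chrnb4 the crushed eyes average 2.51 and 2.72 against 3.204 and 3.60 in the uncrushed eyes. The ranges of crushed and uncrushed eyes overlap in every panel, this one included.

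In the remaining classes no gene passed in either crush comparison (limma, adjusted p under 0.05). Of the 4 AMPA receptor genes, Gria1 was higher in the crushed eye of 6 of 6 vehicle mice, with a log2 change of 0.42 ± 0.15 and an adjusted p of 0.13 by limma, and at 0.16 ± 0.14 in RGFP966 mice. Without the 2 libraries that stood apart Gria1 was at 0.27 and 0.07, and 1 of the 4 AMPA changes was above 0 in each comparison, against 3 in vehicle and 2 in RGFP966 mice with all libraries. Gria3 was at -0.14 and -0.24, the latter with an unadjusted p of 0.048. The 4 kainate genes lay between -0.08 and 0.19 in both comparisons, and the interval of Grik5 stayed between -0.24 and 0.19. Without the 2 libraries the kainate genes lay between -0.19 and 0.11 in vehicle mice and between -0.06 and 0.0019 in RGFP966 mice. Among the 6 metabotropic genes Grm2, an inhibitory autoreceptor known from starburst amacrine cells, was at 0.66 ± 0.28 in vehicle mice with a limma adjusted p of 0.21 and at 0.11 in RGFP966 mice, or 0.55 and -0.02 without the 2 libraries. Grm4 was at 0.08 and -0.45, the latter with an unadjusted p of 0.018 and a limma adjusted p of 0.19, and at -0.06 and -0.56 without the 2 libraries, where the limma adjusted p in RGFP966 mice was 0.033. The 2 delta genes had adjusted p of 0.36 and above by limma, and Grid1 in vehicle mice went from 0.05 to -0.11 without the 2 libraries.

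The 16 GABA-A receptor genes had log2 changes from -0.44 for Gabrg1 to 0.57 for Gabra4 in vehicle mice, 14 of them above 0, and in RGFP966 mice 11 of them were above 0, with Gabre at -0.32. Without the 2 libraries that stood apart Gabra4 was at 0.34 in vehicle mice and the counts above 0 were 10 and 8 of 16, with class medians of 0.07 and -0.0016 in place of 0.18 and 0.14. With all libraries, none of the 16 had an unadjusted p under 0.05 by limma in either comparison. Of all 15773 genes, 2556 had one in vehicle mice and 2381 in RGFP966 mice. The abundant rho gene Gabrr2 had 636, 660 and 999 normalized counts in vehicle CTRL, 659, 809 and 889 in vehicle ONC, 719, 809 and 901 in RGFP966 CTRL and 664, 951 and 1165 in RGFP966 ONC. Its log2 changes with crush were 0.16 and 0.19. The 5 glycine receptor genes lay between 0.11 and 0.41 in vehicle mice and between -0.04 and 0.30 in RGFP966 mice, with SE from 0.16 to 0.37. Without the 2 libraries they lay between 0.01 and 0.27 in vehicle mice, where Glra2 went from 0.31 to 0.07, and between -0.18 and 0.10 in RGFP966 mice, with 2 of 5 above 0 in place of 4. The median amacrine marker sum was 10866 in vehicle CTRL and 12425 in vehicle ONC, and in RGFP966 mice it was 11832 in CTRL and 11327 in ONC. Its part in these values was not tested. Gabrg1, Gabra2, Gabra4 and Gabrb1 sit in a cluster on chromosome 5, and none of these 4 genes passed.

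No receptor gene passed the test for RGFP966 in crushed eyes, in uncrushed eyes or in the difference of crush effects. By limma 0 of 53 and 0% of all 15773 genes passed in each of these 3 comparisons, and at an unadjusted p under 0.05 stood 1, 1 and 0 of the 53 beside 403, 782 and 327 of all genes. The 1 in crushed eyes was Gabrr2, at 0.23 ± 0.10 with an unadjusted p of 0.030, and the 1 in uncrushed eyes was Grin2d, at 0.20 ± 0.082 with an unadjusted p of 0.021. In uncrushed eyes 47 of the 53 log2 differences were above 0, with a median of 0.13, and without the 2 libraries that stood apart the median was 0.02. In crushed eyes the median was 0.03, with a 95% interval within 1.5-fold for 28 of the 53 genes, beside 11447 of all 15773.

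Genes that work with these receptors were followed in lists. Their counts stand beside 5.34% of all genes tested that passed in vehicle mice and 4.67% in RGFP966 mice. Of 22 genes of the excitatory postsynaptic scaffold, Dlgap3 and Shank3, which tie glutamate receptors to the cytoskeleton, fell in vehicle mice, and these and Camk2a, a calcium-dependent kinase, fell in RGFP966 mice. The list's median log2 changes were -0.02 and -0.06, against -0.01 over all genes in both. Dlgap3 had 825, 960 and 1108 normalized counts in vehicle CTRL and 458, 542 and 642 in vehicle ONC, with no overlap, a log2 change of -0.83 ± 0.13 and a limma adjusted p of 5.28e-05. In RGFP966 mice Dlgap3 changed by -0.90 ± 0.12, again without overlap between 827 to 1256 in CTRL and 367 to 740 in ONC. Shank3 changed by -0.60 and -0.66. These falls stood beside the fall of the ganglion cell markers, whose part in them was not tested.

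Kctd12, an auxiliary subunit of the GABA-B receptor that speeds its desensitization, rose in both. It had 234, 262 and 356 normalized counts in vehicle CTRL against 455, 501 and 801 in vehicle ONC, and 231.5, 278 and 307 in RGFP966 CTRL against 500, 573 and 689 in RGFP966 ONC. Crushed and uncrushed eyes did not overlap in either treatment, with log2 changes of 1.01 ± 0.13 and 1.13 ± 0.12 and limma adjusted p of 3.09e-06 and 1.43e-07. Of the 6 GABA-B genes, Kctd12 was the one that passed in vehicle mice, and Kctd12b at 0.58 joined it in RGFP966 mice. The microglia marker sum was higher in the same eyes, with medians of 1773 and 1744 in the uncrushed and 5701 and 5787 in the crushed eyes, and its part in the Kctd12 result was not tested.

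Of 10 genes of glutamate transport and vesicle loading, Slc1a1, a neuronal glutamate transporter, rose in both, at 0.58 and 0.48, and Glul, the glutamine synthetase of Müller glia, fell in both, at -0.44 and -0.36. Slc1a3, the Müller glia transporter, rose in vehicle mice at 0.53. Among 11 genes of cholinergic synthesis, transport and nicotinic chaperones, Ly6e, a membrane protein of the family that binds nicotinic receptors and is also induced by interferon, rose at 0.98 and 0.74. Tmem35a, the chaperone NACHO that nicotinic receptors need for assembly, fell at -0.36 in vehicle mice. At an unadjusted p under 0.05 by limma stood 2556 of all 15773 genes in vehicle mice and 2381 in RGFP966 mice. Of 22 auxiliary proteins of AMPA and kainate receptors 0 passed in vehicle mice (limma; 2 at an unadjusted p under 0.05), and Cnih2 fell at -0.39 in RGFP966 mice. Of 13 genes of the inhibitory scaffold 0 passed in vehicle mice (limma; 6 at an unadjusted p under 0.05), and Iqsec3 fell at -0.41 in RGFP966 mice. Of 9 genes of GABA and glycine synthesis and transport and of 3 muscarinic receptors 0 passed in either comparison by limma, with 1 and 0 at an unadjusted p under 0.05 in vehicle mice and 0 and 0 in RGFP966 mice. Several of these calls rested on 1 library or 1 scaling. Slc1a1 in RGFP966 mice did not pass without RGFP966 CTRL female B or female C, without RGFP966 ONC male A or male C, or without the sex term. Slc1a3 in vehicle mice did not pass without vehicle CTRL female A, male C or male D, without vehicle ONC female C, male A, male B or male C, without the filter on the mean or without the sex term. Glul did not pass in either comparison after quantile normalization, and neither Tmem35a in vehicle mice nor Cnih2 and Iqsec3 in RGFP966 mice passed after rescaling to the same total. The counts of 0 in vehicle mice became 1 auxiliary protein, Cnih2 or Shisa9, in 6 of 33 alternatives and 1 or 2 scaffold genes, Iqsec3 among them in 3, in 5 of 33. In RGFP966 mice Olfm1 joined Cnih2 in 5 of 33. Without vehicle ONC male D, Slc6a11, a GABA transporter, passed in vehicle mice, and without the 2 libraries that stood apart Camk2a passed in vehicle and Slc17a6, a vesicular glutamate transporter, in RGFP966 mice.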

How the data were processed

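The deposited table holds signal values, DESeq2-normalized counts that the authors made from kallisto 0.46.1 assignments to mm10 transcripts, per the submitters' processing notes. Trimming, batches and the DESeq2 version were not given in the sources used here. Of the values up to 20 reads, 37.5 to 64.0% per library (median 51.4%) lay within 0.05 of a whole read, so no count test was run. 2 columns with a repeated name were not used, leaving 26 of 28 libraries and 13 of 14 mice, and 26 entries whose symbols had become dates (0.115% of the total) were left out of its 35999 rows.

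Genes with a mean of at least 10 were fitted as log2(value + 1), a scale that understates changes of low genes, with limma 3.58.1 (R 4.3.3), a trended prior, 4 groups plus sex. Tests were two-sided, with Benjamini-Hochberg adjustment over 15773 genes. Intervals are 95% limits from limma. Ratios were tested with exact permutations (scipy 1.17.1). Fits were checked on simulated data. Levels per kb use the longest coding transcript in GENCODE vM21.

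Replicate numbers pair both eyes of 1 mouse, per the labels. The deviations of paired eyes from group means, over all 15773 genes tested, correlated by -0.20 to 0.34 (median 0.12). The fit with the mouse as a replicate block, with an estimated correlation of -0.029 between its eyes, was an alternative. Others were a pseudocount of 10, no filter, rescaling, quantile normalization, no sex term and leaving out each library; the fit without 2 libraries was chosen after seeing the data.

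Every member was placed in its receptor class. Values in each group are given for members past the threshold and for the gene highest per kb within each of 9 symbol prefixes. They are also given for Chrna3, chosen as a neighbour after its values were seen. Of each list, up to 3 genes past the threshold with the smallest p are named. Some members count in these totals but are not reported here by name. Members and lists were chosen with earlier results of these data known.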

Additional observations from a re-analysis of the deposited data

Results flagged for a closer look

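In each of the 4 groups the highest or lowest library of each of the 53 genes was compared with the others of its group by its gap relative to the group's range. Of 212 such groups 21 held a library far from the others, 9.91%. The rule was applied to counts without a log scale, and all flags but 1 were on the high side. A chance rate of about 1 in 20 was not established for such values, so 9.91% cannot be read against it. The libraries of a group share each library's makeup, so the flags are not independent.

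RGFP966 ONC male C was far above the other 6 libraries of its group for 12 genes. Among GABA-A genes it held normalized counts of 549 for Gabra3, 364 for Gabrb2 and 166 for Gabrg3. Among glycine genes it held 282 for Glra2, 501 for Glra3 and 955 for Glrb, and among glutamate genes 786 for Gria1 and 1469 for Grin1. Its amacrine marker sum of 20361 was the highest of the 26 libraries, and the part of cell makeup was not tested.

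Vehicle CTRL male B was far above for Gabrb1 at 190.1, Gabrr2 at 999 and Grik4 at 90.8. Vehicle ONC male D was far above for Grin2a at 123 and for Grin2b at 1076. In RGFP966 CTRL, male A was far above for Gabrb1 at 305, male B for Chrna2 at 92.9 and female A for Gria4 at 1261.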

How the results depend on the processing

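In vehicle mice the count of 1 receptor gene past the threshold became 2 with a pseudocount of 10, 0 without a filter on the mean and 0 without the 2 libraries that stood apart, a setting chosen after seeing the data, and ran from 0 to 2 when each library was left out. Rescaling kept a count of 1, with Chrnb4 in place of Grin2d. In RGFP966 mice the count of 2 stayed at 2 in the planned settings and when any library was left out, and was 3 without those 2 libraries. With the mouse as a replicate block the counts stayed at 1 and 2, and no other call of the 53 genes changed. That fit estimated a correlation of -0.029 between the eyes of a mouse, so it was almost the fit without a block. It is a weak check of the pairing, and no gene fit had a separate term for each mouse. The drug and interaction counts were 0 in every setting run. The count of subunit ratios past the threshold in RGFP966 mice, 1 as reported, was 0 with the replicate block of sign flips over mice and ran from 0 to 2 when each library was left out. With 7 mice a sign-flip test cannot go below 0.0156, so 1 ratio alone could not pass after the adjustment. Tests on whole reads could not be run, and levels near the mean limit of 10 rest on about 10 reads per library.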
